A study of Mus musculus with 4 samples.

Results

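Neb, Prg4, Lamc1, Itih5, Ecm1, Sdc4, Ncmap, Csrp2, Epcam and F13a1 are 10 genes best known from muscle, matrix, epithelium, nerve and clotting. They were chosen by their high intensities in arrays of Foxp3+ T cells, out of 18194 genes with a probe set on the array. All probe sets that the platform annotation assigns to exactly 1 gene were taken, 15 probe sets for the 10 genes. Of these, 14 reached an intensity of 32.5 in at least 1 array, the level a probe set had to reach to count as measured, and all 10 genes were measured. Since high values in the Foxp3+ arrays chose the genes, the Foxp3 differences below are descriptions and carry no test.

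CD4+ T cells of 25 male B6/129 F2 mice, aged 5 to 8 weeks, were taken from spleen and lymph nodes. All the mice carried green fluorescent protein (GFP) knocked into Foxp3, the gene of the transcription factor that defines regulatory T cells, and none of the 4 groups came from mice without that allele. After depletion of cells bearing CD8, B220, CD11b, NK1.1 or DX5, the cells were sorted by GFP and by CD25, a subunit of the receptor for IL-2. Foxp3+ cells were split into CD25hi and CD25lo populations and Foxp3- cells into CD25+ and CD25- populations, and RNA of each was amplified in vitro and read on 1 Affymetrix Mouse Genome 430 2.0 array. With 1 array a group there is no spread between replicates and no test, and differences are judged by size.

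Among Foxp3+ cells, Foxp3 read 1308 in CD25hi and 1117 in CD25lo, and among Foxp3- cells 16.8 in CD25+ and 17.6 in CD25-. Il2ra, the CD25 gene, read 1562 and 288 in the same Foxp3+ populations, against 283 and 22.3 in the Foxp3- populations. Its dimmer probe set read 417 and 84.2 in Foxp3+ cells, against 114 and 9.56 in Foxp3- cells. CD25lo Foxp3+ and CD25+ Foxp3- cells were thus nearly equal by the first, while CD25lo Foxp3+ cells were lower by the dimmer. All 10 measured genes of a T cell list, Cd3e and Cd4 among them, reached the filter in all 4 arrays, and their summed intensity was 42391 and 45249 for Foxp3+ cells, against 29758 and 42779.9 for Foxp3- cells. Array medians lay between 15.03 and 15.6. Readings under 10.1, the 40th percentile of all values, were set to that floor before any fold was taken, and a fold against the floor is a lower bound.

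The extracellular matrix is the mesh of secreted proteins and sugars around cells. Laminins form the sheets on which epithelia and muscle rest, lubricin and hyaluronan-binding proteins act in fluids and soft matrix, and transglutaminases join matrix and clot proteins to each other. Syndecans and Epcam sit in the cell membrane and link cells to the matrix or to other cells. Regulatory T cells restrain immune responses, and those that live in tissues bear adhesion molecules and receptors that resting T cells lack.

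In 8 of the 10 genes the lower Foxp3+ array exceeded the higher Foxp3- array by at least 1.5-fold, with gaps from 4.31-fold to 13.1-fold. None was lower in both Foxp3+ arrays. Over all 9623 measured genes 2.80% were higher by that rule and 1.93% lower. The choice of genes used this contrast, so nothing is read from the difference between those shares. The other two, Ecm1 and Sdc4, had different patterns. Ecm1 stood out in CD25hi Foxp3+ cells alone, and Sdc4 was low in CD25- Foxp3- cells alone. Of the 10 genes 5 (Neb, Lamc1, Ncmap, Csrp2 and F13a1) reached the filter only in Foxp3+ arrays, so they could be measured only by being high there. In bulk RNA, fewer cells that express a gene and less RNA of it per cell cannot be told apart.

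**Figure D1:**
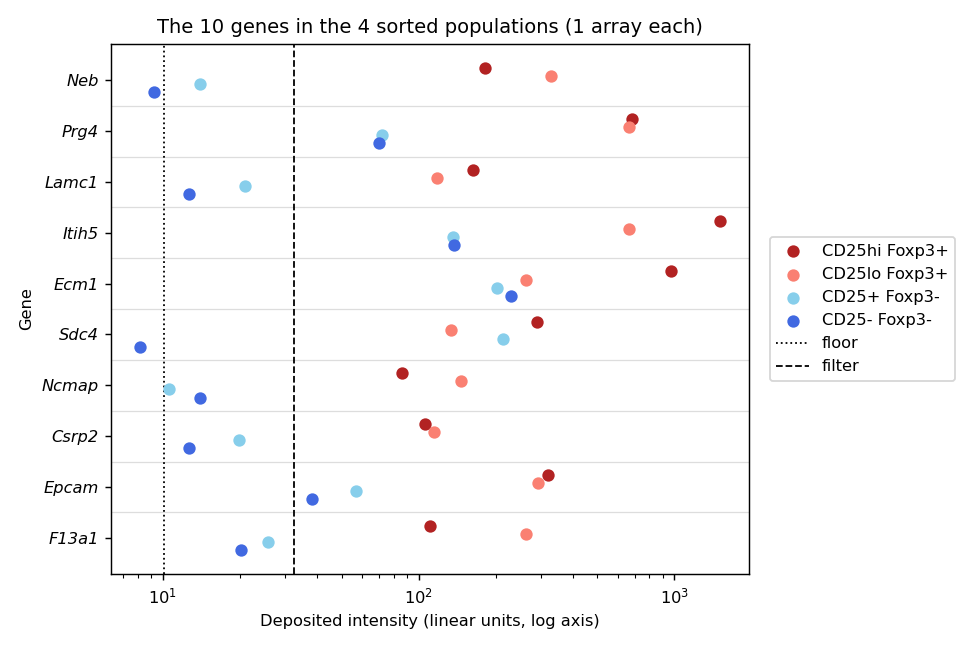
Deposited intensity of each of the 10 genes (log axis) in the 4 sorted populations, 1 point per array, with the floor of 10.1 and the filter of 32.5 as vertical lines. Both Foxp3+ points lie right of both Foxp3- points by at least 4.31-fold except in Ecm1, where CD25lo Foxp3+ cells lie next to the Foxp3- cells, and in Sdc4, where CD25+ Foxp3- cells lie between the Foxp3+ cells.

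RefSeq promoter windows (GRCm38.p6) were at hand for 6 of the 10 genes, 8 windows in all, and were read over the 250 bases before each start site. Both strands were searched for motifs, and their share was taken over all 32817 windows of that length. The forkhead motif TGTTTAC was held by 3.16% of all windows. The STAT factor motif TTCNNNGAA was held by 7.01%, and the NFAT motif GGAAAA by 20.4% of all windows. The AP-1 factor motif TGANTCA was held by 6.75%, and the TATA box letters TATAAA by 12.4% of all windows. Of the 8 windows only that of Ecm1 held any, a TGANTCA match that begins 64 bases and a TATAAA match that begins 27 bases before the start site, with no overlap. The windows of Ecm1 and Sdc4 are shown as the genes that departed from the Foxp3 split, beside Itih5 and Epcam as genes that followed it, 5′ to 3′ with matches in capitals. They lie at chr3:95739570-95739819 on the minus strand, chr2:164443189-164443438 on the minus strand, chr2:10153293-10153542 on the plus strand and chr17:87635729-87635978 on the plus strand.
Ecm1: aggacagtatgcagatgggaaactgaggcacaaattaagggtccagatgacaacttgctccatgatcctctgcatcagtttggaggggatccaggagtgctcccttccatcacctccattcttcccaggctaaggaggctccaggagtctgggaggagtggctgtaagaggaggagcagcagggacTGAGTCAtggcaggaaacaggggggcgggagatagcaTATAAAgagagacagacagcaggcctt
Sdc4: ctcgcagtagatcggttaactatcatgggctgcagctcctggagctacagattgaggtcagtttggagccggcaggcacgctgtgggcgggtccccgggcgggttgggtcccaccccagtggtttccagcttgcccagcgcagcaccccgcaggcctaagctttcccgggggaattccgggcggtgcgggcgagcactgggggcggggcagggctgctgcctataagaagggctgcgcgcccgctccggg
Itih5: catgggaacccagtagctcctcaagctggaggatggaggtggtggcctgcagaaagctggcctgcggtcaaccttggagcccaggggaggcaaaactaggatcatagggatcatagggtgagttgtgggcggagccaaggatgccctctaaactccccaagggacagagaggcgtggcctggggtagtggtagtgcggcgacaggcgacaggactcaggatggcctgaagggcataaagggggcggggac
Epcam: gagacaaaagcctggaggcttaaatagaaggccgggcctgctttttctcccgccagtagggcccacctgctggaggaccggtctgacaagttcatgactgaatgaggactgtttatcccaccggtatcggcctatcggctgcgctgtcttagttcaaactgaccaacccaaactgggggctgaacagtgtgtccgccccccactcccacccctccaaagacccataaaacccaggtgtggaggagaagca
A match describes letters in the window and is not a binding site. GC content was 54.0% in the Ecm1 window, 68.0% for Sdc4, 61.2% for Itih5 and 56.4% for Epcam, beside a median of 52.4% over all windows. In the windows not shown it was 54.4% and 42.8% for F13a1 and 61.2% and 66.0% for Ncmap.

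Neb encodes nebulin, a very large protein that lies along the thin actin filaments of skeletal muscle. Among Foxp3+ cells it read 182 in CD25hi and 330.0 in CD25lo, and among Foxp3- cells 13.9 in CD25+ and 9.25 in CD25-. Both Foxp3+ arrays were high and the Foxp3- arrays lay at the floor or just above it, with no overlap. Among all probe sets of its array Neb stood at percentiles 77.6 and 83.8 for Foxp3+ cells, against 48.4 and 34.7 for Foxp3- cells. CD25lo Foxp3+ cells were at least 32.6-fold above CD25- Foxp3- cells, and within the Foxp3+ pair the CD25lo array was 1.81-fold above the CD25hi array.

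Of 32 other genes on a list of sarcomere and striated muscle genes with a probe set, 6 were measured. None of the 6 was higher and none lower in both Foxp3+ arrays, against 2.80% and 1.93% of all measured genes. Their median log2 difference, mean of the Foxp3+ minus mean of the Foxp3- arrays, was -0.14, beside -0.01 over all measured genes. Nebl (nebulette, the smaller relative of nebulin best known from heart) read 31.7 and 119 in Foxp3+ cells, against 397 in CD25+ and 74.6 in CD25- Foxp3- cells. Its highest array was thus a Foxp3- array. Mylpf, a light chain of fast muscle myosin, read 155 and 97.2 in Foxp3+ cells, against 101 and 194.5 in Foxp3- cells. Actn2, the actinin of the muscle Z-disc, read 41.6 and 50.4 in Foxp3+ cells, against 31.4 and 62.7 in Foxp3- cells. Titin (Ttn), the elastic filament of muscle, read 16.4 and 50.9 in Foxp3+ cells, against 32.9 and 17.5 in Foxp3- cells. In each of these the Foxp3+ and Foxp3- ranges overlapped. Few genes were measured on this and each family list below. A count of none on such a list is near the shares of 2.80% higher and 1.93% lower over all measured genes.

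Csrp2 encodes a cysteine-rich protein with LIM zinc fingers that binds the actin cytoskeleton and is known from smooth muscle. It read 106 and 115 in CD25hi and CD25lo Foxp3+ cells, against 19.8 and 12.6 in CD25+ and CD25- Foxp3- cells. The Foxp3+ readings were nearly equal, 1.08-fold apart, and the gap to the Foxp3- pair was 5.37-fold. Both Foxp3- readings lie close to the floor, so the size of the gap is uncertain. Its relative Csrp1 read 207 and 144 in Foxp3+ cells, against 160.5 and 123 in Foxp3- cells, and did not pass the rule. Csrp3, the striated muscle relative, was below the floor in all 4 arrays. Crip1, a small LIM protein of many immune cells, read 5699 and 7662 in Foxp3+ cells, against 2521 and 5605 in Foxp3- cells, a difference short of the rule. Among 10 other genes on the list of cysteine-rich LIM proteins and smooth muscle with a probe set, 3 were measured and none passed the rule.

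Lamc1 encodes the laminin gamma-1 chain, which joins an alpha and a beta chain in most laminins of basement membranes. The probe set with the higher mean on the log2 scale read 164 and 118 in CD25hi and CD25lo Foxp3+ cells, against 21.0 and 12.6 in CD25+ and CD25- Foxp3- cells, with a gap of 5.65-fold. The second probe set read 110.5 and 199 in Foxp3+ cells, against 17.2 and 6.05 in Foxp3- cells, with a gap of 6.44-fold. Both thus separated the Foxp3+ from the Foxp3- arrays. They disagreed within the Foxp3+ pair, where CD25hi over CD25lo was 1.38-fold by the first and CD25lo over CD25hi was 1.80-fold by the second. The order of the Foxp3+ arrays is therefore not settled for Lamc1.

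Of 15 other laminin and basement membrane genes with a probe set, 3 were measured (Agrn, Hspg2 and Lamb3), and none passed the rule in either direction. Lamb3, a beta chain of epithelial laminin, read 32.6 and 23.7 in Foxp3+ cells, against 14.1 and 16.0 in Foxp3- cells, just short of the rule at 1.48-fold and past it, at 1.52-fold, after scaling the arrays to equal medians. Lamb1 read 15.6 and 14.8 in Foxp3+ cells, against 14.9 and 19.8 in Foxp3- cells, and Lama5 lay between 10.6 and 11.6 in all 4 arrays. Agrn (agrin), a proteoglycan of basement membranes, read 75.6 and 88.6 in Foxp3+ cells, against 84.5 and 76.1 in Foxp3- cells. Among laminin receptors 4 of 7 genes were measured and none passed. Itgb1, the integrin beta-1 chain, read 1793 and 6527 in Foxp3+ cells, against 2345 and 939.8 in Foxp3- cells. Itga6, an alpha chain that pairs with it to bind laminin, read 1980.2 and 1778 in Foxp3+ cells, against 682 and 1350.5 in Foxp3- cells.

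Prg4 encodes lubricin, the mucin-like glycoprotein that lubricates joint surfaces. It read 684 and 664 in CD25hi and CD25lo Foxp3+ cells, against 72.0 and 70.3 in CD25+ and CD25- Foxp3- cells. The Foxp3+ readings differed by 1.03-fold, the Foxp3- readings by 1.03-fold, and the pairs by a gap of 9.22-fold. All 4 readings lay above the filter, so neither the floor nor the filter enters this value. Prg4 stood at percentiles 89.8 and 89.7 of its array for Foxp3+ cells, against 68.2 and 68.0 for Foxp3- cells.

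Itih5 encodes a heavy chain of the inter-alpha-trypsin inhibitor family, whose members bind hyaluronan and stabilise the matrix. Its highest probe set read 1509 and 667 in CD25hi and CD25lo Foxp3+ cells, against 137 and 138 in CD25+ and CD25- Foxp3- cells. The one with the second highest log2 mean read 509 and 180.0 in Foxp3+ cells, against 53.6 and 59.3 in Foxp3- cells. The third read 465 and 150.4 in Foxp3+ cells, against 37.0 and 41.3 in Foxp3- cells. In all 3 probe sets every reading was above the filter, CD25hi Foxp3+ cells were highest, CD25lo Foxp3+ cells came next, and the Foxp3- arrays were close together. The Foxp3 gap was 4.83-fold, 3.04-fold and 3.64-fold, and CD25hi over CD25lo Foxp3+ was 2.26-fold, 2.83-fold and 3.09-fold, in the order of their log2 means. Probe sets of a gene read the same RNA and are not replicates.

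No relative of Itih5 was measured. Itih2, Itih3 and Itih4 were below the floor in all 4 arrays, and Itih1 lay between 27.1 and 31.7 in all of them. Of 16 other genes on the inter-alpha-trypsin inhibitor and hyaluronan list with a probe set, 2 were measured, and neither passed the rule. Cd44, the hyaluronan receptor of activated and memory T cells, read 2544 and 3260.4 in Foxp3+ cells, against 2744 and 1175 in Foxp3- cells. Hmmr, a hyaluronan-binding protein of dividing cells, read 135 and 160.5 in Foxp3+ cells, against 137 and 60.4 in Foxp3- cells. Both were lowest in CD25- Foxp3- cells.

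Ecm1 encodes extracellular matrix protein 1, a secreted glycoprotein of skin and other matrices. Among Foxp3+ cells it read 974 in CD25hi and 263 in CD25lo, and among Foxp3- cells 203 in CD25+ and 229 in CD25-. The CD25hi Foxp3+ array was high and the other three lay within 1.30-fold of each other. CD25hi over CD25lo Foxp3+ was 3.70-fold, the widest such difference of the 10 genes, while CD25lo Foxp3+ cells exceeded the higher Foxp3- array by only 1.15-fold. The annotation gave Ecm1 a single probe set. Of 17 other secreted matrix glycoprotein genes with a probe set 2 were measured, Matn2 and Fbln1, and neither passed the Foxp3 rule. Matn2 (matrilin-2, a filament-forming adaptor) read 45.7 and 163 in Foxp3+ cells, against 110 and 15.1 in Foxp3- cells.

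F13a1 encodes the catalytic A chain of clotting factor XIII, a transglutaminase that joins fibrin strands and is also made by macrophages and platelets. It read 111 and 263 in CD25hi and CD25lo Foxp3+ cells, against 25.8 and 20.2 in CD25+ and CD25- Foxp3- cells. CD25lo Foxp3+ cells were 2.37-fold above CD25hi Foxp3+ cells, the only one of the 10 genes past 2-fold in that direction, and the Foxp3 gap was 4.31-fold. F13b, the carrier chain, was below the floor in all 4 arrays. Of 26 other transglutaminase and coagulation genes with a probe set 5 were measured and none passed the rule. Tgm2, the tissue transglutaminase, read 91.2 and 43.8 in Foxp3+ cells, against 170 and 52.0 in Foxp3- cells. F2r, a thrombin receptor, read 1859 and 1981 in Foxp3+ cells, against 3038 and 1269.5 in Foxp3- cells. Pros1 (protein S, a plasma anticoagulant) read 125 and 95.6 in Foxp3+ cells, against 74.4 and 38.3 in Foxp3- cells. Tfpi, the tissue factor pathway inhibitor, read 247 and 218 in Foxp3+ cells, against 286 and 222 in Foxp3- cells.

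Markers of the cells in which F13a1 is best known were read beside it. Myeloid markers, 14 with a probe set, reached the filter in 3 and 6 cases in CD25hi and CD25lo Foxp3+ cells, against 6 and 7 cases in CD25+ and CD25- Foxp3- cells. Their summed intensity, with readings under the floor set to it, was 327 and 765 in Foxp3+ cells, against 650.5 and 1091 in Foxp3- cells. The sum was highest in CD25- Foxp3- cells, where F13a1 was lowest, and within the Foxp3+ pair both were higher in CD25lo cells. The part of myeloid cells or platelets in the F13a1 readings, the 2.37-fold difference included, was not tested. The myeloid genes Csf1r and Lyz2 read 57.8 and 27.8 in the CD25hi Foxp3+ array, and 212 and 113 in the CD25lo Foxp3+ array. None of 7 platelet markers reached the filter in any array, with Pf4 between 6.58 and 11.6 and a summed intensity of 74.996 and 73.2 in Foxp3+ cells, against 71.8 and 74.0 in Foxp3- cells.

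Sdc4 encodes syndecan-4, a membrane proteoglycan whose heparan sulfate chains bind matrix and growth factors. It read 291 and 134 in CD25hi and CD25lo Foxp3+ cells, against 214 in CD25+ and 8.16 in CD25- Foxp3- cells. The CD25- Foxp3- array was below the floor and the other three were high, in the order CD25hi Foxp3+, CD25+ Foxp3-, CD25lo Foxp3+. CD25+ over CD25- Foxp3- cells was at least 21.1-fold and CD25hi over CD25lo Foxp3+ cells 2.18-fold. Sdc4 was the only gene of the 10 that separated the CD25hi Foxp3+ and CD25+ Foxp3- arrays from the CD25lo Foxp3+ and CD25- Foxp3- arrays by 1.5-fold or more, with a gap of 1.60-fold, as 1.10% of all measured genes did. None of the 10 was lower by that rule, against 0.187% of all measured genes. This split of the arrays went by the sort labels. By its brighter probe set Il2ra was nearly equal in the CD25lo Foxp3+ (288) and CD25+ Foxp3- (283) arrays, which the split sets apart. The second Sdc4 probe set stayed under the filter, at 19.3 and 10.1 in Foxp3+ cells, against 20.8 and 4.98 in Foxp3- cells. Its CD25hi Foxp3+ and CD25+ Foxp3- readings were likewise the highest, but it counts as not measured.

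Other syndecans did not share this order. Sdc1, the syndecan of plasma cells and epithelia, read 11.9 and 11.5 in Foxp3+ cells, against 81.8 and 31.3 in Foxp3- cells. It was lower in both Foxp3+ arrays, with a gap of 2.63-fold, and reached the filter only in CD25+ Foxp3- cells. Sdc3, a syndecan of nerve and muscle, read 36.8 and 37.2 in Foxp3+ cells, against 40.8 and 38.3 in Foxp3- cells. Sdc2 was below the floor in all 4 arrays. Sdcbp (syntenin), an adaptor that binds syndecan tails, read 3249.7 and 4405 in Foxp3+ cells, against 3123 and 3310.4 in Foxp3- cells. Of 10 other syndecan and glypican genes with a probe set 3 were measured, with Sdc1 lower and none higher in both Foxp3+ arrays.

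Epcam encodes the epithelial cell adhesion molecule. Its main probe set read 321 and 292 in CD25hi and CD25lo Foxp3+ cells, against 56.7 and 38.2 in CD25+ and CD25- Foxp3- cells. All 4 readings passed the filter, the Foxp3+ readings lay 1.10-fold apart and the Foxp3 gap was 5.15-fold. A second probe set of Epcam went the other way, with 34.9 and 43.1 in Foxp3+ cells, against 48.5 and 53.8 in Foxp3- cells. Its readings lay just above the filter and spanned a narrow range. Its identifier ends in _x_at, a mark the maker gives to probe sets with probes that also match other sequences. Whether this bears on the disagreement was not tested.

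Of 23 other epithelial genes with a probe set 6 were measured. None passed the Foxp3 rule in either direction, against 2.80% higher and 1.93% lower of all measured genes. Their median log2 difference was -0.00031, beside -0.01 over all measured genes. Cdh1 (E-cadherin) lay between 8.64 and 10.8, Krt8 between 5.47 and 10.6 and Krt18 between 10.3 and 11.1 in all 4 arrays, and the claudin gene Cldn7 was below the floor in all of them. Spint2, a protease inhibitor of epithelia and other cells, read 721 and 653 in Foxp3+ cells, against 532 and 527 in Foxp3- cells. St14 (matriptase), a membrane protease, read 51.3 and 84.3 in Foxp3+ cells, against 42.6 and 21.7 in Foxp3- cells. The desmosome genes Dsp and Dsg2 read highest in CD25+ Foxp3- cells, at 70.6 and 65.4.

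Ncmap encodes a membrane protein of the noncompact myelin of Schwann cells. It read 86.2 and 147 in CD25hi and CD25lo Foxp3+ cells, against 10.6 and 14.0 in CD25+ and CD25- Foxp3- cells. Both Foxp3+ arrays were above the filter and both Foxp3- arrays near the floor, with a gap of 6.17-fold whose size is uncertain for that reason. CD25lo over CD25hi Foxp3+ cells was 1.71-fold. Of 9 other peripheral myelin genes with a probe set, Mbp and Egr2 were measured and neither passed the rule. Mbp (myelin basic protein, whose gene also gives transcripts in blood cells) read 1002 and 950.2 in Foxp3+ cells, against 1269 and 1648 in Foxp3- cells. Egr2, a transcription factor of Schwann cells and of stimulated T cells, read 975 and 1279 in Foxp3+ cells, against 1370.1 and 432 in Foxp3- cells.

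**Figure D2:**
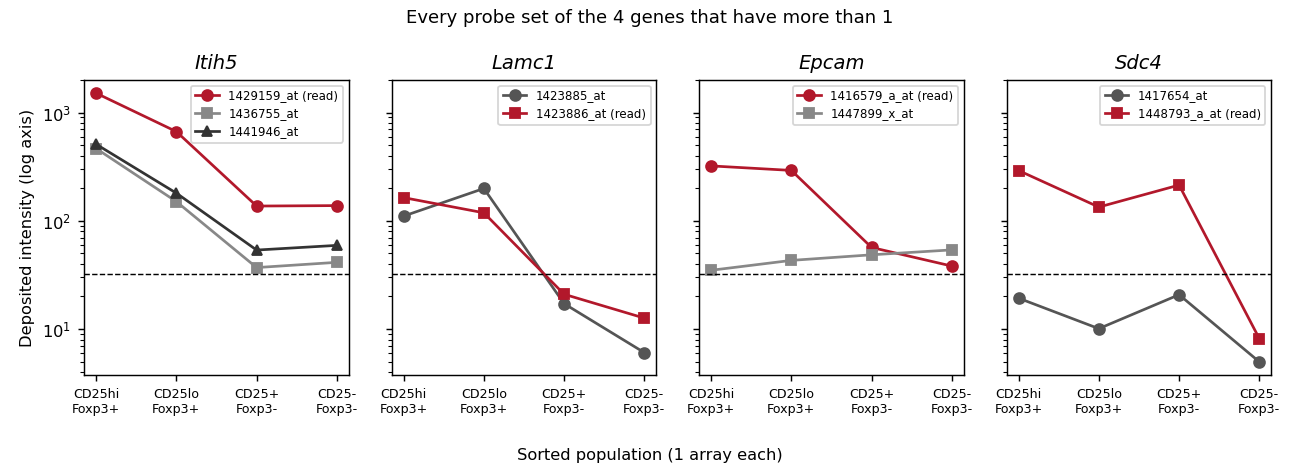
Deposited intensity (log axis) of every probe set of Itih5, Lamc1, Epcam and Sdc4 in the 4 populations, 1 array each; red marks the probe set read for the gene and the dashed line the filter of 32.5. The 3 Itih5 probe sets keep the same order of the Foxp3+ arrays, the Lamc1 probe sets cross within the Foxp3+ pair, and the second Epcam probe set is flat near the filter, from 34.9 to 53.8.

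Over the 10 families together, 36 of 165 other listed genes with a probe set were measured. None was higher, apart from Lamb3 after scaling to equal medians, and 1, Sdc1, was lower in both Foxp3+ arrays, and 35 passed in neither direction, against 2.80% higher and 1.93% lower of all measured genes. The median log2 difference was 0.06 over these 36 genes, -0.01 over all measured genes and 2.89 over the 10 chosen genes. The lists were written with earlier results of these data known.

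**Figure D3:**
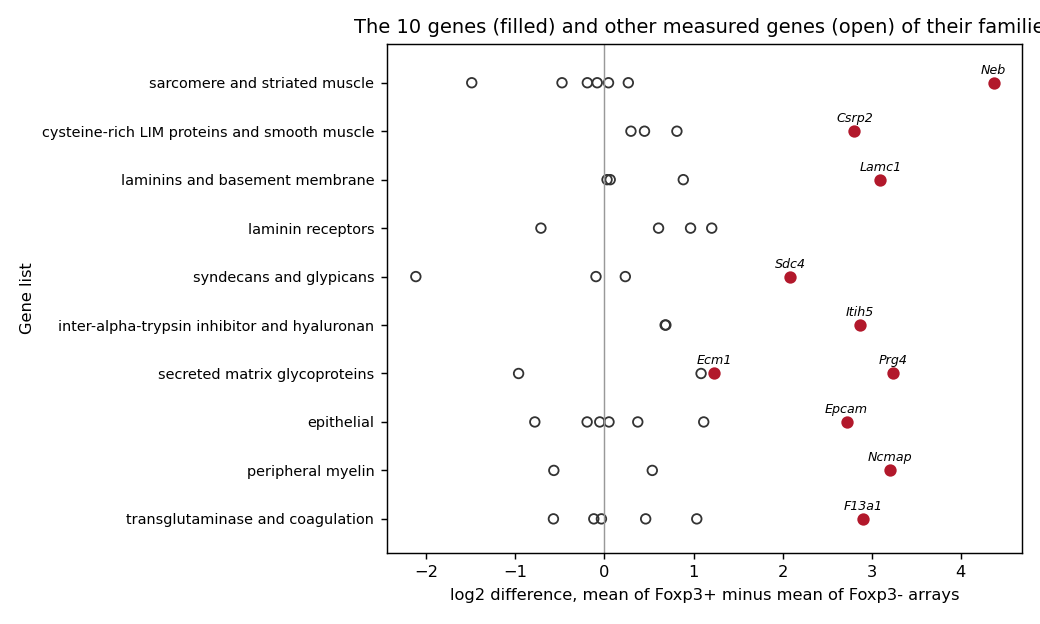
Log2 difference, mean of the Foxp3+ minus mean of the Foxp3- arrays, for the 10 genes (filled, named) and the other measured genes of their families (open), by list. The filled points were chosen for high values in Foxp3+ arrays; the open points have a median of 0.06 over 36 genes.

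Markers of fibroblasts, endothelial cells and dendritic cells mostly stayed under the filter. Of 10 fibroblast markers none reached the filter in either Foxp3+ array, with Col1a1 at 11.2 and 10.4 and Col3a1 below the floor. Their summed intensity was 105 and 106 in Foxp3+ cells, against 168 and 104 in Foxp3- cells, the highest sum holding the only marker past the filter, Pdgfrb. Of 10 endothelial markers Pecam1 and Egfl7 reached the filter in every array, Cdh5 was below the floor in all 4, and the sums were 279 and 255 in Foxp3+ cells, against 191 and 287 in Foxp3- cells. The 5 dendritic cell markers with a probe set reached it in no array, with sums of 53.7 and 55.4 in Foxp3+ cells, against 67.0 and 64.8 in Foxp3- cells.

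Markers of other blood cells were read as well. In both Foxp3+ arrays 4 of 6 measured CD8 T and NK markers, 3 of 3 measured red cell markers and 1 of 3 measured B cell markers were lower by the 1.5-fold rule. None was higher, beside 1.93% lower and 2.80% higher of all measured genes. Of 8 measured myeloid markers none passed the rule in either direction. The summed intensity of CD8 T and NK markers was 388 and 355 in Foxp3+ cells, against 913 and 1729.6 in Foxp3- cells. That of B cell markers was 157 and 213 in Foxp3+ cells, against 237 and 276 in Foxp3- cells. Of the 3 measured B cell markers Ms4a1 was the one lower by the rule, and Cd79b went the other way. Cd79b read 97.2 and 118 in Foxp3+ cells, against 58.4 and 69.2 in Foxp3- cells, short of the rule at 1.40-fold. The summed intensity of red cell markers was 68.3 and 137 in Foxp3+ cells, against 362 and 632 in Foxp3- cells. Their part in the Foxp3 differences of the 10 genes was not tested.

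Between the Foxp3+ populations, Itih5, Ecm1 and Sdc4 were 2-fold or more higher in CD25hi than CD25lo cells, as 3.21% of all measured genes were. F13a1 alone was 2-fold or more lower, as 2.50% of all measured genes were, and 6 of the 10 lay within 2-fold. The median log2 difference of CD25hi over CD25lo was 0.09 for the 10 genes and 0.05 for all measured genes. CD25hi Foxp3+ cells gave the highest reading for 6 of the 10 genes and CD25lo Foxp3+ cells for 4, beside 17.7% and 21.4% of all measured genes. Since the genes were chosen for high values in Foxp3+ arrays, nothing is read from these counts. The Foxp3+ readings were only 1.03-fold apart in Prg4, 1.10-fold in Epcam and 1.08-fold in Csrp2, and the Lamc1 probe sets disagreed on the order.

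**Figure D4:**
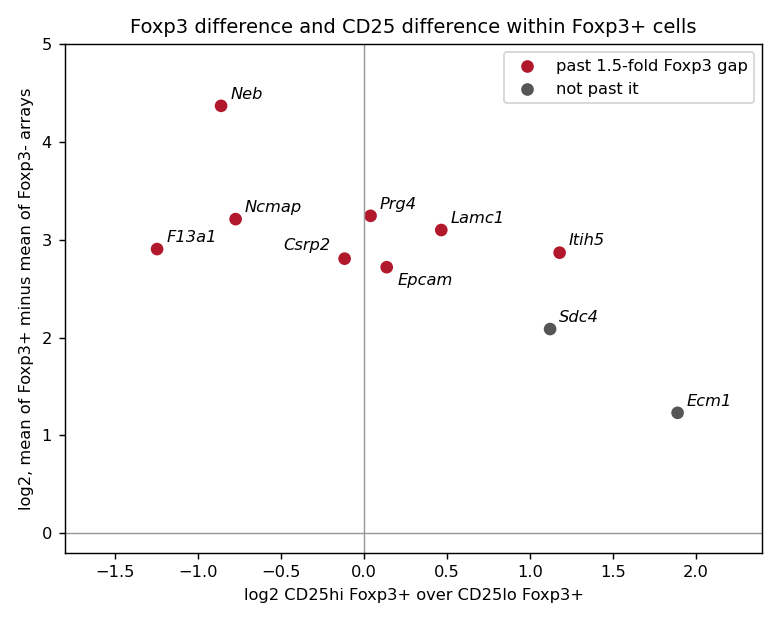
Each of the 10 genes by its log2 difference of CD25hi over CD25lo Foxp3+ cells (x) and of the mean Foxp3+ over the mean Foxp3- arrays (y); red points passed the 1.5-fold Foxp3 rule. Itih5, Sdc4 and Ecm1 lie right of 1 on the x axis, F13a1 lies left of -1, and Neb has the largest y value at 4.37.

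Between the Foxp3- populations, Sdc4 alone was 2-fold or more higher in CD25+ than CD25- cells, as 12.1% of all measured genes were, and the other 9 lay within 2-fold. None was 2-fold lower, as 6.43% of all measured genes were. Set against CD25- Foxp3- cells, all 10 genes passed 2-fold upward in CD25hi Foxp3+ cells, beside 7.09% of all measured genes upward and 3.74% downward. In CD25lo Foxp3+ cells 9 did, Ecm1 being the exception, beside 9.09% upward and 6.88% downward. Set against CD25+ Foxp3- cells, 9 passed 2-fold upward in CD25hi Foxp3+ cells, all but Sdc4, beside 4.82% upward and 6.84% downward. In CD25lo Foxp3+ cells 8 did, all but Sdc4 and Ecm1, beside 5.16% upward and 9.04% downward. None of the 10 passed downward in these 4 comparisons. They share arrays and repeat the contrast that chose the genes.

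Some family genes of the same kinds stood out in a single array. Of the 36 other measured family genes, 6 read 1.5-fold or more above all other arrays in CD25+ Foxp3- cells, as 8.39% of all measured genes did. They were Dsg2, Nebl, Sdc1, Dsp, Tgm2 and F2r, named after their values were seen. Nebl was 3.35-fold and the desmosomal cadherin gene Dsg2 3.45-fold above its next array. In CD25lo Foxp3+ cells 3 of the 36 did so, Itgb1, St14 and Ttn, beside 2.84% of all measured genes. In CD25hi Foxp3+ cells 0 of the 36 did, beside 1.47%, and in CD25- Foxp3- cells 2 did, Fbln1 and Itga7, beside 4.78%.

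For each of the 10 genes the nearest profile was sought among measured genes outside the 10. Likeness was taken as the Euclidean distance between log2 profiles over the 4 arrays, each centred on its own mean. Each match thus rests on 4 values and is a description. The 10 genes were chosen for high values in Foxp3+ arrays, so most matches had to be genes that are high there too. No link to regulatory T cell genes is read from them. Nearest to Neb was Klrg1, an inhibitory receptor of effector lymphocytes, at a distance of 0.29. Nearest to Itih5 was Gpr83, a receptor known from regulatory T cells, at 0.38. Nearest to Ecm1 was the enolase gene Eno3 at 0.14, which read 1973 and 475 in CD25hi and CD25lo Foxp3+ cells, against 385 and 413 in CD25+ and CD25- Foxp3- cells. F13a1 lay nearest to Pglyrp1, a peptidoglycan recognition protein, at 0.35, and Ncmap to the kinase Matk at 0.38. Csrp2 lay nearest to the acyltransferase Lclat1 at 0.33 and Epcam to Swap70, a signalling protein of lymphocytes, at 0.37. Prg4 lay nearest to Itgae, the CD103 integrin chain, at 0.62, and Lamc1 to Entpd1, the ectonucleotidase CD39, at 0.73. Sdc4 had the most distant match, the decoy IL-1 receptor Il1r2 at 0.90. Some second matches were nearly as close, such as Swap70 to Lamc1 at 0.74, Prdm1 to F13a1 at 0.36 and Penk to Sdc4 at 0.92. The Lamc1 profile is that of its first probe set, and the second orders the Foxp3+ pair the other way. Among the 10 genes themselves Csrp2 and Epcam were closest, at 0.21.

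**Figure D5:**
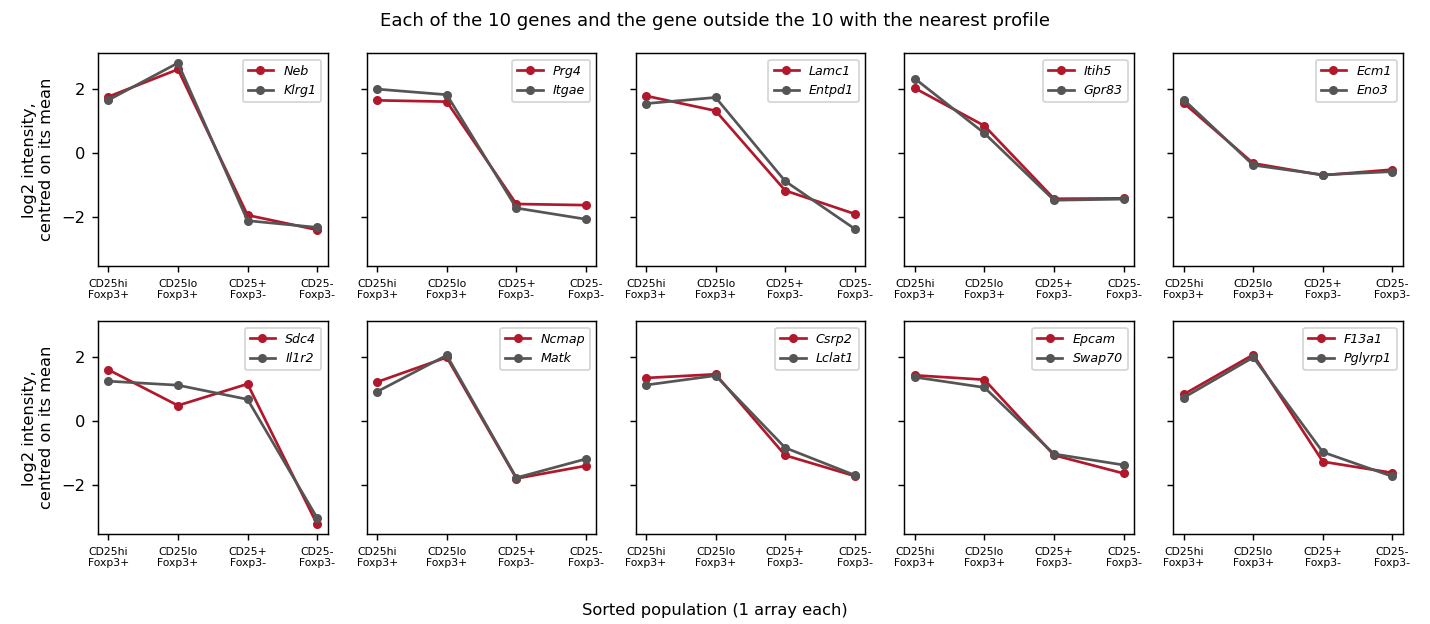
Log2 intensity over the 4 populations, centred on its own mean, for each of the 10 genes (red) and the measured gene outside the 10 with the nearest profile (grey), 1 array per point. The distances run from 0.14 for Ecm1 and Eno3 to 0.90 for Sdc4 and Il1r2.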

How the data were processed

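Values were deposited as 1 intensity per probe set and array, on a linear scale as read from the values. The authors' probe summary, background correction and normalization are not given in the sources used here. Groups came from the sample titles, 1 array each. Precision is limited by the number of arrays. The 4 columns share a scale and were converted to log2 with no further scaling, using Python 3.11.15, pandas 2.3.3 and numpy 2.4.6.

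Of 45101 probe sets, 34958 had exactly 1 gene in the platform annotation and 932 had several. Entrez identifiers matched 34754 of them to RefSeq (GRCm38.p6), which changed no symbol. Intensities under the 40th percentile (10.1) were set to it, and a probe set whose highest value missed the 60th percentile (32.5) was not measured. A gene was read from its probe set with the highest mean log2 value. The size rules were 1.5-fold between pairs of arrays and 2-fold between 2 arrays.

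Genes named are the 10 genes, Foxp3, Il2ra, the nearest profile to each outside the 10, and, per list, those past the Foxp3 rule and up to 4 others with the highest intensity. Other family genes (Ttn, Csrp3, Lamb1, Lama5, the Itih relatives, Sdc2, F13b, Cdh1, Krt8, Krt18, Cldn7, Dsp, Dsg2) and the markers named were chosen after their values were seen. The genes, lists and rules were all chosen with earlier results of these data known. Alternatives were other floors, filters, scalings, probe set choices and size rules.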

Additional observations from a re-analysis of the deposited data

How the results depend on the processing

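No paired analysis was possible because each group has 1 array, and no array could be left out. Of 99 recomputed counts and medians over the 10 genes and their families, 95 stayed within 1.5-fold (a median within log2 of 1.5). Some of these could not move, since the medians do not use the size rules. A fall from 8 to 7 genes past the Foxp3 rule was held to be within 1.5-fold. Many of the counts also repeat the contrast that chose the 10 genes. Under the larger size rules (2-fold for pairs, 3-fold for 2 arrays) Sdc4 left the CD25 pairing, giving 0 genes, and 1 gene, Ecm1, stayed higher in CD25hi than in CD25lo Foxp3+ cells. Among the other family genes the 75th percentile filter left 0 lower with Foxp3, since Sdc1 was no longer measured, and scaling to equal medians made 1 higher, Lamb3 at 1.52-fold. That filter also dropped Csrp2, leaving 7 of 9 genes past the Foxp3 rule. Reading genes from their second probe set left 7 of the 10 genes past the rule. Only Lamc1, Itih5 and Epcam had another probe set past the filter, so the other genes kept their main values. The upward Foxp3 gap of Epcam, the lower Foxp3+ over the higher Foxp3- array, became -0.63 (log2), against 2.36. Both Foxp3+ readings then lay below both Foxp3- readings, but by only 1.13-fold, short of the rule. The mean of probe sets gave Epcam a gap of 1.01 (log2). The probe set with the second highest log2 mean gave Itih5 1.60, against 2.27. Under the 2-fold pairing rule 111 of all measured genes were higher with Foxp3, against 269. Readings near the floor limit the gaps of Neb, Lamc1, Ncmap and Csrp2.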
